A study of Mus musculus with 24 samples.

Results

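The difference between the genotypes in the rapid answer of cortical neurons to BDNF was measured as the rise at 30 min in knockout cultures minus the rise at 30 min in wild-type cultures. It was estimated per gene from the 16 control and 30 min libraries of the 24 libraries of the series, with a separate term for each of the 8 cultures, and again from 12 libraries without the cultures coded KO2C and KO2D. The libraries held messenger RNA of primary cortical neurons, prepared from E16.5 mouse embryos and kept 12 days in culture. One genotype was WT. The other is labelled H2BE-KO/mCherry-KI, in which H2be, the gene of a histone variant, is knocked out and an mCherry reporter knocked in, and is called KO here. Within each genotype, 4 cultures gave a control library and a library after 30 min of BDNF, so each of the 4 groups held 4 libraries. The submitters call the 4 samples of a group biological replicates, and a code in each library's description ties the control and the BDNF library of a culture together. The codes are WT2C, WT2D, WT2E and WT2F for WT replicates 1 to 4, and KO2A, KO2B, KO2C and KO2D for KO replicates 1 to 4. How many embryos went into a culture, and the BDNF dose, are not stated in the labels. Libraries taken at 24 h were not part of the estimate.

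BDNF is a secreted growth factor that binds the receptor kinase TrkB, the product of Ntrk2. TrkB passes the signal through the Ras to ERK cascade, phospholipase C and PI3 kinase, and the kinases at the end of these paths act on transcription factors already bound to DNA, among them CREB and SRF with its ternary complex partners. These switch on immediate early genes, which need no new protein synthesis for their induction and which encode transcription factors (Fos, Egr and Nr4a families), synaptic proteins such as Arc, and inhibitors of the same signalling path. H2BE is a histone: it can take the place of canonical H2B in the nucleosome, the unit around which DNA is wrapped.

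The targeted gene, Hist2h2be, was counted at 4.75, 4.85, 4.64 and 5.85 CPM (counts per 1000000 of the normalised library total) in the WT control cultures and at 48.8, 59.1, 57.2 and 54.3 CPM in the KO control cultures. At 30 min it stood at 4.23, 3.58, 3.89 and 4.36 CPM in WT and at 53.3, 61.5, 52.9 and 53.5 CPM in KO. The libraries labelled KO thus held more reads of this gene, not fewer, and every KO library lay above every WT library. The counts cover the whole gene, and which part of its transcript the inserted allele keeps is not stated, so this value cannot check the labels. The difference in its response did not pass the test (0.34 log2, 95% interval 0.09 to 0.59, adjusted p = 1.0, edgeR's quasi-likelihood test, Benjamini-Hochberg adjusted).

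The 16 libraries held 19780486 to 62135270 counts. The share of counts on mitochondrial genes was 4.75 to 6.40% in the 8 WT libraries and 4.60 to 5.77% in the libraries of KO2A and KO2B. It was 9.34% and 7.52% in the control and BDNF libraries of KO2C, and 18.5% and 21.7% in those of KO2D. The BDNF library of KO2C also had the lowest total and the lowest number of detected genes, 15323. Results are therefore given with and without these 2 cultures. Summed markers of neurons ranged from 6734 to 7987 CPM in KO and from 7903 to 8433 CPM in WT control cultures, and from 6735 to 8174 and 7591 to 8526 CPM at 30 min. Markers of inhibitory interneurons summed to more in KO, with a small overlap at 30 min (2313 to 3161 against 1059 to 2180 CPM in control, 2378 to 3151 against 1058 to 2399 CPM at 30 min). Astrocyte markers summed to less in every KO library than in any WT library (251 to 414 against 596 to 718 CPM in control, 276 to 350 against 583 to 725 CPM at 30 min). Microglia markers summed to at most 18.3 CPM in any library and markers of the oligodendrocyte lineage to at most 59.1 CPM. Defining genes of other cells were absent from many libraries: Gjb6 was at 0 in 16 libraries, P2ry12 and Sox10 in 13 each, Tmem119 and Mag in 10 each, and Cldn5 in 9. The part of these cells in the results was not tested. In bulk RNA, fewer cells of a type and less RNA per cell cannot be told apart.

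Fosb, Egr2, Arc, Npas4 and 26 other genes rose less in KO than in WT after 30 min of BDNF. Of 16275 genes tested, 30 had a smaller rise in KO than in WT (0.184%) and 0 had a larger one (0%), at an adjusted p under 0.05 in edgeR's quasi-likelihood test, Benjamini-Hochberg adjusted. Genes past that threshold are termed called below. The unadjusted p was under 0.05 for 414 genes (2.54%). Among the 30 called genes were transcription factors (Fosb, Fos, Junb, Jun, Atf3, Egr2, Egr3, Egr4, Npas4, Nr4a1), the synaptic gene Arc, mRNA decay regulators (Btg1, Btg2, Tob1, Tob2), the secreted protein gene Ccn1 and the phosphatase gene Dusp1. Their differences ran from -3.41 (Fosb) to -0.63 (Rhob) on the log2 scale, with a median of -1.36, and 23 lay below -1. The median over all genes tested was -0.02. Negative values mean a smaller rise in KO. The calls rest on comparing each BDNF library with the control of its own culture: with no term per culture, 4 genes were called, Fosb, Btg2, Dnajb1 and Gadd45b.

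All 30 called genes rose in WT. In KO, 15 of them also rose by the test and the other 15 did not pass it, although 29 of the 30 KO estimates were above 0. Across all genes, 85 rose in WT (0.522%) and 0 fell, and 24 rose in KO (0.147%) and 0 fell. Without KO2C and KO2D, of 16865 genes tested, 226 rose and 21 fell in WT, and 30 rose and 6 fell in KO. That fit holds fewer KO than WT cultures, so its counts do not compare the genotypes. In each of the 30 genes the rise in log2 CPM was smaller in all 4 KO cultures than in all 4 WT cultures. Such complete separation was found in 1.76% of all genes tested in this direction and in 1.05% in the other direction. Since the calls were made on the same values, the separation is a description of the cultures.

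**Figure D1:**
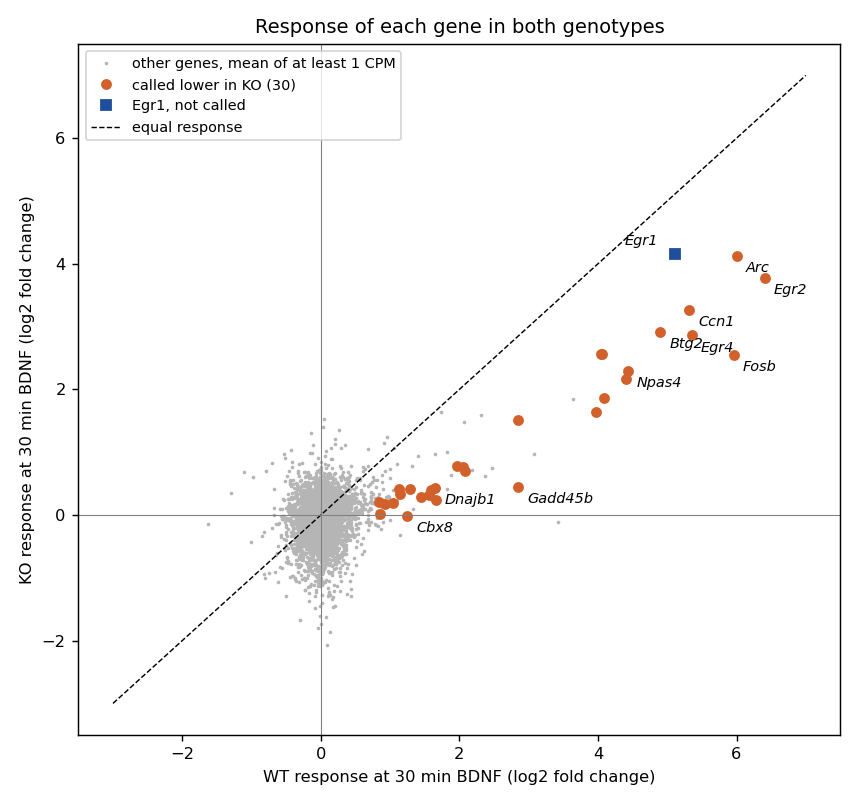
Response of each gene to 30 min of BDNF as log2 fold change, WT on the horizontal axis and KO on the vertical axis, with 1 point per gene of at least 1 CPM on average and a dashed line of equal response. The 30 called genes (orange) lie below the line between WT responses of 0.84 and 6.41, and Egr1 (blue square, not called) lies below it at 5.12 in WT and 4.16 in KO.

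**Figure D2:**
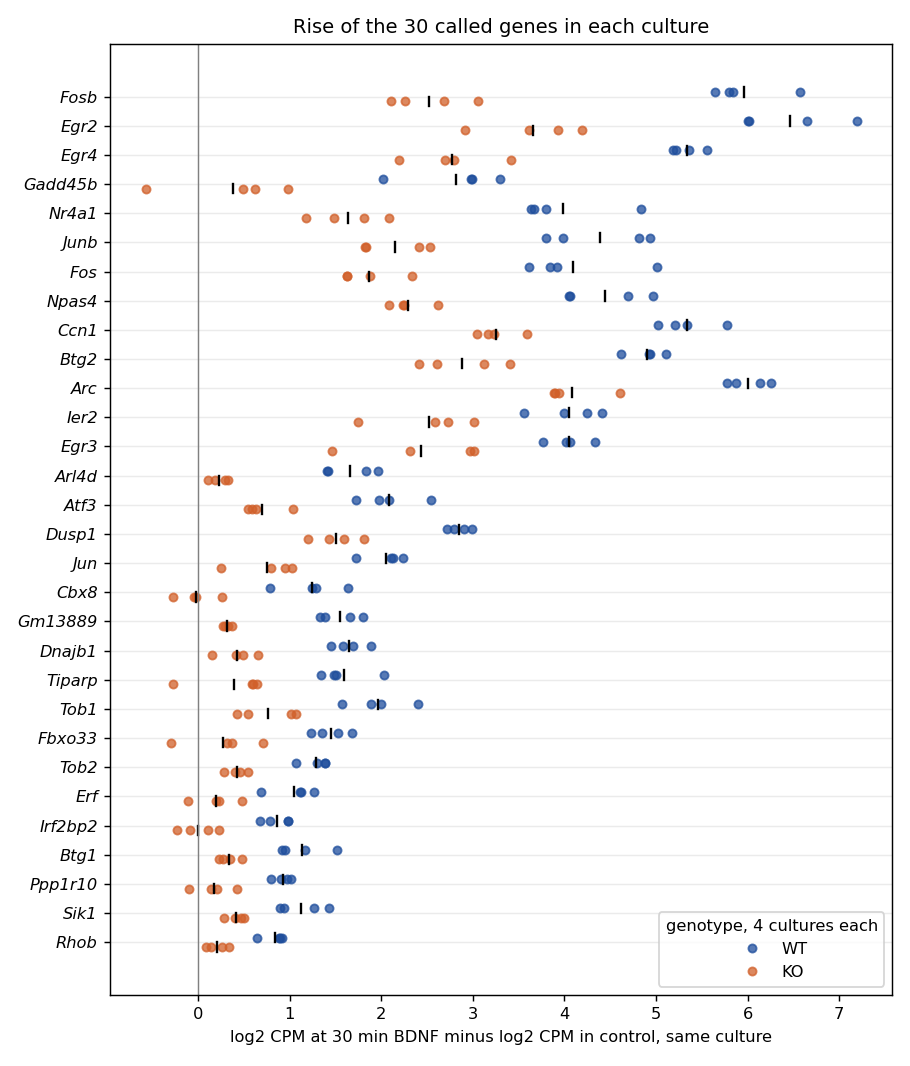
Rise of the 30 called genes in each culture, as log2 CPM at 30 min minus log2 CPM in that culture's control library, with 4 WT (blue) and 4 KO (orange) cultures per gene and black ticks at the means. For every gene the 4 KO points lie to the left of the 4 WT points, and the widest distance is that of Fosb.

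Some of the called genes carried short elements near their starts that the choice of genes did not use. CREB and related factors bind the palindrome TGACGTCA, the cAMP response element, and its shorter form TGACG. SRF binds the CArG box. The 250 bases before each RefSeq start (GRCm38.p6) were searched on both strands for 25 of the 30 called genes and for 11764 of the genes tested. TGACGTCA occurred in 4 of the 25 (16%), Arl4d, Btg2, Cbx8 and Dusp1, and in 3.03% of the genes tested. TGACG, which TGACGTCA contains, occurred in 17 of the 25 (68.0%) and in 29.6% of the genes tested. A CArG box occurred in 1 of the 25 (4.0%), Egr2, and in 1.5% of the genes tested. GAANNTTC, a core of the heat shock element, occurred in 2 of the 25 (8.0%), Jun and Ppp1r10, and in 6.10%. A match is a run of letters and no measure of binding. All 30 called genes rose in WT, and they were not compared with genes that rose without being called. The shares therefore do not tell a trait of the difference between genotypes from one of genes that BDNF raises. The windows of the 4 genes with TGACGTCA, of Egr2 with its CArG box, and of Fosb, which had the largest difference, are shown 5′ to 3′ on the strand of the gene. Capitals mark TGACGTCA, TGACG or its reverse complement, and the CArG box.
Arl4d (chr11:101665291-101665540, plus strand): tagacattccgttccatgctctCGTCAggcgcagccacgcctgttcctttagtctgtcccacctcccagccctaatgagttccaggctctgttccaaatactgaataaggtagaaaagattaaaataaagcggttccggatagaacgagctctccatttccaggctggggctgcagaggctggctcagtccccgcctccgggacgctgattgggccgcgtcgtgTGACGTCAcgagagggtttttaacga
Btg2 (chr1:134079156-134079405, minus strand): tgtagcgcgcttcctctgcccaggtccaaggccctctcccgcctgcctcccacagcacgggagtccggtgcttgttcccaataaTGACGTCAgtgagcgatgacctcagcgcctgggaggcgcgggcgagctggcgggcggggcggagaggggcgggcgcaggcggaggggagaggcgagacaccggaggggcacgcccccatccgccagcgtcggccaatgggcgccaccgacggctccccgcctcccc
Cbx8 (chr11:119040914-119041163, minus strand): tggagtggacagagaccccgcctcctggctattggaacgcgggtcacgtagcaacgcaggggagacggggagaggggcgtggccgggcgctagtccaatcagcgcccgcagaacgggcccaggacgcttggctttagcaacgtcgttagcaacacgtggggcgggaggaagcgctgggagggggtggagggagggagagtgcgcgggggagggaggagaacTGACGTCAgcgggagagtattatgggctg
Dusp1 (chr17:26508473-26508722, minus strand): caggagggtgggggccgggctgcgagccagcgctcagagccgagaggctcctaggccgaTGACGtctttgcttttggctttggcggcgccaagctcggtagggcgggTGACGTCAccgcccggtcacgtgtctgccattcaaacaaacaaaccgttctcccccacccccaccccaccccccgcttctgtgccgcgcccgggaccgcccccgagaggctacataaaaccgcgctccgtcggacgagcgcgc
Egr2 (chr10:67537619-67537868, plus strand): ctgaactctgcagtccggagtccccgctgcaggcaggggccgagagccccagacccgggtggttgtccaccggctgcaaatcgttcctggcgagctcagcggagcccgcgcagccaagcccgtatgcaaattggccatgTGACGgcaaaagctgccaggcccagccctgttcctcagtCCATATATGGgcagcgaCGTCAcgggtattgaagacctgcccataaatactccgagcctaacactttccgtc
Fosb (chr7:19310046-19310295, minus strand): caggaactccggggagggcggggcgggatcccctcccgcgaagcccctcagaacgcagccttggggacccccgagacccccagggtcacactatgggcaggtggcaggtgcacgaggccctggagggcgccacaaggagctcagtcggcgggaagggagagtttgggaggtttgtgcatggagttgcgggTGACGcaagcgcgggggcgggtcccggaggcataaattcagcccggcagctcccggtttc
The TGACGTCA of Arl4d and Cbx8 began 26 and 29 bases before the start, and those of Dusp1 and Btg2 began 143 and 166 bases before it. Fosb held a single TGACG in this window, and Egr2 had its CArG box 72 bases before the start shown.

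The AP-1 genes encode subunits that pair as Fos-Jun dimers and bind the same DNA element. Of 11 AP-1 and small MAF genes tested, 5 were called with a smaller rise in KO (Fosb, Fos, Junb, Jun and Atf3), 0 with a larger one, and the median difference was -1.25 log2. By the same test 7 of the 11 rose in WT and 4 in KO. Over all genes tested, 0.184% were called with a smaller rise in KO, 0.522% rose in WT and 0.147% rose in KO. These shares stand beside the counts of every list below. The lists were written with earlier results of these data known, so their counts are a description. Fosb (chr7:19302696-19310051) stood at 3.25, 5.09, 4.58 and 2.55 CPM in the WT control cultures and at 189, 256, 257 and 248 CPM after BDNF. In KO it stood at 20.1, 17.5, 21.4 and 16.4 CPM in control and at 129, 147, 102 and 70.5 CPM after BDNF. Fosb therefore started higher in every KO culture than in any WT culture and ended lower in every KO culture. It rose 62.2-fold in WT and 5.86-fold in KO, a difference of -3.41 ± 0.22 (SE, adjusted p = 2.35e-05), the largest of all called genes. The gain in CPM was 234 ± 32.0 in WT and 93.3 ± 32.8 in KO (mean ± SD, n = 4 cultures). Gene positions are given on mm10.

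In WT, Fos (chr12:85473890-85477273) went from 43.2, 58.2, 73.2 and 20.6 CPM in control to 622, 881, 899 and 664 CPM with BDNF. The KO cultures had 137, 110.3, 129 and 78.2 CPM of Fos in control and 500.4, 555, 397 and 241 CPM with BDNF. Fos, the partner of the Jun proteins in AP-1, showed the same order as Fosb, with KO above WT in all control cultures and below WT in all BDNF cultures. It rose 17.0-fold in WT and 3.65-fold in KO, a difference of -2.22 ± 0.25 (SE, adjusted p = 0.00108). Junb started at 5.47, 6.18, 12.5 and 8.35 CPM in WT and reached 87.1, 175, 175 and 257 CPM, whereas the KO cultures went from 18.6, 15.6, 13.5 and 10.2 CPM to 65.8, 90.3, 72.0 and 36.3 CPM. The levels of the genotypes overlapped in control, and at 30 min the highest KO culture lay just above the lowest WT culture. Junb rose 21.1-fold in WT and 4.49-fold in KO, a difference of -2.23 ± 0.25 (SE, adjusted p = 0.00108). It shares its locus with Prdx2 on the opposite strand, a gene with no called difference, and the strand setting of the counting is not stated in the labels.

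Jun differed less in its control level: the WT cultures went from 45.4, 44.9, 51.5 and 56.6 CPM to 214, 194, 171 and 247 CPM, and the KO cultures went from 48.6, 61.9, 52.9 and 48.1 CPM to 99.1, 119.5, 92.0 and 57.3 CPM. Both genotypes started in one range and parted at 30 min, when KO2D had the lowest level. Its difference was -1.28 ± 0.16 (SE, adjusted p = 0.00237), a call lost in a fit of all 24 libraries. Atf3, a stress-induced member of the ATF family, gave the opposite picture, since the WT cultures went from 4.39, 5.94, 4.96 and 2.41 CPM to 18.7, 19.6, 19.7 and 14.3 CPM while the KO cultures went from 12.1, 9.28, 12.5 and 9.31 CPM to 18.9, 14, 18.2 and 19.1 CPM. Here the control levels did not overlap and the levels at 30 min did. The difference in the rise of Atf3 was -1.38 ± 0.19 (SE, adjusted p = 0.00836), called in 7 of 8 fits that each left out 1 culture, with -0.04 log2 between the genotypes at 30 min (adjusted p = 0.908). The smaller rise of Atf3 thus came with a higher start and an end level that did not pass the test.

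**Figure D3:**
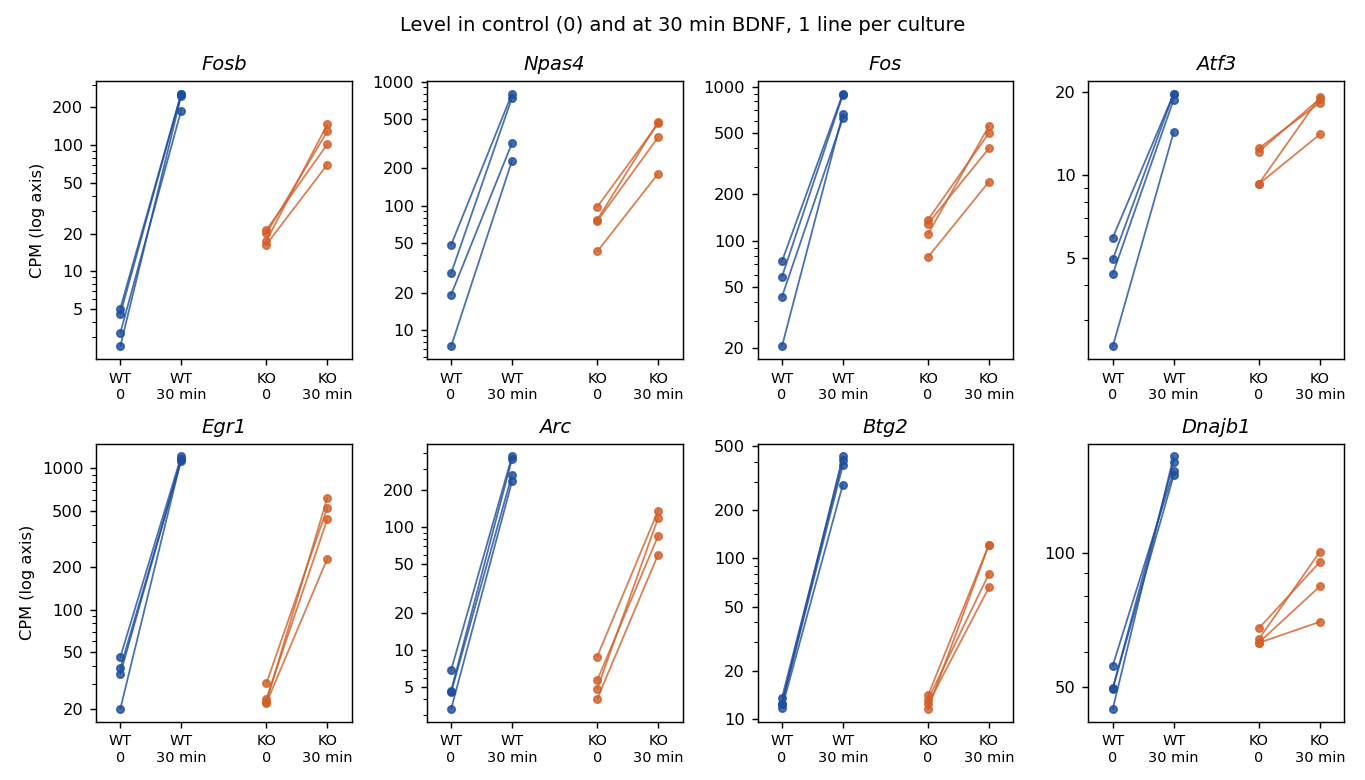
CPM on a log axis of 8 genes in control (0) and at 30 min of BDNF, 1 line per culture, WT in blue and KO in orange. Fosb, Fos and Dnajb1 start higher in KO and end lower, Atf3 starts higher and ends in the same range, and Arc, Btg2 and Egr1 start in overlapping ranges and end lower in KO.

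The EGR genes encode zinc finger factors, and Nab1 and Nab2 encode corepressors that bind them. Of the 6 genes, 3 were called with a smaller rise in KO (Egr2, Egr3 and Egr4), against 0.184% of all genes tested. With a larger rise 0 were called, and the median difference was -1.22 log2. In each genotype 4 of the 6 rose. The control levels of Egr2 (chr10:67535475-67542188) were 1.32, 2.23, 1.38 and 3.91 CPM in WT and 3.16, 3.0, 2.28 and 3.07 CPM in KO. At 30 min Egr2 reached 200.4, 147, 143 and 255 CPM in WT and 49.0, 55.6, 28.4 and 23.4 CPM in KO. Control levels of Egr2 overlapped, and at 30 min every KO culture was below every WT culture. Egr2 rose 84.9-fold in WT and 13.7-fold in KO, a difference of -2.63 ± 0.28 (SE, adjusted p = 0.000758). For Egr4, the WT cultures went from 1.29, 1.42, 1.26 and 3.04 CPM to 49.9, 60.4, 61.6 and 112 CPM, and the KO cultures went from 3.73, 3.0, 2.99 and 2.69 CPM to 24.4, 32.6, 21.1 and 12.4 CPM. Its difference was -2.50 ± 0.22 (SE, adjusted p = 0.000173). For Egr3, the WT cultures went from 4.12, 2.86, 3.49 and 8.42 CPM to 69.7, 58.4, 57.2 and 115 CPM, and the KO cultures went from 3.0, 2.4, 2.12 and 2.16 CPM to 15.1, 19.7, 16.8 and 6.03 CPM. Its difference was -1.49 ± 0.26 (SE, adjusted p = 0.0435), a call that held in 3 of the 8 fits that left out 1 culture.

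Egr1, a widely used marker of neuronal activation, was not called. Egr1 (chr18:34859823-34864984) stood at 38.5, 35.1, 19.8 and 46.1 CPM in the WT control cultures and at 1135, 1159.9, 1162 and 1216 CPM after BDNF. In KO it stood at 30.1, 22.3, 23.5 and 21.9 CPM in control and at 526, 619, 437 and 229.8 CPM after BDNF. Every KO culture was below every WT culture at 30 min, with the lowest level in KO2D, and the control levels overlapped. Egr1 rose 34.7-fold in WT and 17.8-fold in KO. The difference was -0.96 log2 with a 95% interval of -1.55 to -0.38 for this gene alone, and its adjusted p over all genes was 0.847 (edgeR's quasi-likelihood test). Without KO2C and KO2D it was -0.64 (adjusted p = 0.677). Egr1 kept 81.2% of its WT log2 rise in KO, against 59.0% for Egr2, 53.4% for Egr4 and 63.3% for Egr3.

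Npas4 encodes a neuronal bHLH-PAS factor that calcium entry induces, and the Nr4a genes encode orphan nuclear receptors. Of these 4 genes, Npas4 and Nr4a1 were called with a smaller rise in KO (0.184% of all genes tested were). The median difference of the 4 was -1.44 log2. All 4 rose in WT and 2 in KO. In WT, Npas4 (chr19:4984355-4990316) went from 19.2, 28.5, 48.4 and 7.36 CPM in control to 319.8, 742, 801 and 231 CPM with BDNF. The KO cultures had 98.0, 77.2, 75.3 and 42.8 CPM of Npas4 in control and 461, 473, 357 and 182 CPM with BDNF. The genotypes overlapped in control and at 30 min, and the WT cultures spread widely at both times. Npas4 rose 21.5-fold in WT and 4.92-fold in KO, a difference of -2.13 ± 0.19 (SE, adjusted p = 0.000173). On the linear scale it was the exception among the called genes: its gain was 498 ± 274 CPM in WT and 295 ± 115 CPM in KO (mean ± SD, n = 4 cultures), and the exact two-sided permutation p of that difference was 0.286. The gains of the other 29 called genes were smaller in all 4 KO cultures than in all 4 WT cultures, as in 1.70% of all genes tested.

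For Nr4a1, the WT cultures went from 30, 43.6, 46.7 and 14.6 CPM to 383, 605, 580.0 and 419 CPM, and the KO cultures went from 69.3, 64.2, 67.0 and 41.1 CPM to 243, 272, 152 and 115 CPM. At 30 min all KO cultures were below all WT cultures, and the difference was -2.32 ± 0.25 (SE, adjusted p = 0.000708). Nr4a2 and Nr4a3 had differences of -0.76 (adjusted p = 0.454) and -0.72 (adjusted p = 0.737) and were not called. Without KO2C and KO2D, Nr4a2 passed the threshold at -0.63 (adjusted p = 0.0262).

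Among 20 synaptic and neuronal effector genes, 2 were called with a smaller rise in KO, Arc and Fbxo33 (0.184% of all genes tested were). The median difference of the 20 was -0.20 log2. Arc encodes a protein that acts at synapses in the trafficking of glutamate receptors. The control levels of Arc (chr15:74669083-74672570) were 4.69, 4.54, 3.32 and 6.89 CPM in WT and 8.90, 4.86, 5.71 and 4.03 CPM in KO. At 30 min Arc reached 361, 268, 237 and 379 CPM in WT and 137, 119.6, 85.6 and 60.2 CPM in KO. Control levels overlapped, and at 30 min the highest KO culture was well below the lowest WT culture. Arc rose 64.2-fold in WT and 17.4-fold in KO, a difference of -1.88 ± 0.17 (SE, adjusted p = 0.000173), and its call was lost in the fit of all 24 libraries. Its gain was 306 ± 68.3 CPM in WT and 94.8 ± 32.8 CPM in KO (mean ± SD, n = 4 cultures). For Fbxo33, which encodes an F-box protein, the WT cultures went from 16.9, 16.4, 18.5 and 17.5 CPM to 43.2, 38.5, 53.2 and 56.4 CPM, and the KO cultures went from 25.2, 25.3, 28 and 24.1 CPM to 31.4, 32.7, 22.8 and 39.4 CPM. Fbxo33 started higher in KO, where KO2C was the culture in which it was lower after BDNF, and the difference was -1.17 ± 0.18 (SE, adjusted p = 0.0168), called in 2 of the 8 fits without 1 culture.

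The regulators of mRNA decay included BTG and TOB proteins, which bind the CCR4-NOT deadenylase, and ZFP36 proteins, which bind AU-rich elements. Of the 7 genes, 4 were called with a smaller rise in KO (Btg2, Tob1, Tob2 and Btg1), against 0.184% of all genes tested. The median difference of the 7 was -0.81 log2. By the test 4 rose in WT and 2 in KO. Btg2 (chr1:134075170-134079120) stood at 12.4, 12.4, 11.7 and 13.5 CPM in the WT control cultures and at 432, 381, 288 and 410.2 CPM after BDNF. In KO it stood at 14, 11.5, 13.2 and 12.4 CPM in control and at 122, 122, 80.2 and 66.0 CPM after BDNF. The control levels of Btg2 were nearly alike, and at 30 min the genotypes did not overlap. Btg2 rose 29.9-fold in WT and 7.56-fold in KO, a difference of -1.98 ± 0.19 (SE, adjusted p = 0.000232). For Tob1, the WT cultures went from 15.9, 18.9, 21.7 and 21.6 CPM to 83.9, 70.1, 64.5 and 86.5 CPM, and the KO cultures went from 14, 13.4, 14.7 and 13.1 CPM to 28.3, 28.2, 19.8 and 19.1 CPM. Tob1 was lower in KO at both times, and its rise differed by -1.18 ± 0.19 (SE, adjusted p = 0.0203), called in 4 of the 8 fits without 1 culture. Tob2 and Btg1 differed by -0.87 (adjusted p = 0.00917) and -0.81 (adjusted p = 0.0418), and of the 8 fits that left out 1 culture Tob2 was called in 3 and Btg1 in 0.

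GADD45 proteins act in stress signalling and DNA demethylation, and Ier2 is a rapid gene named for its early induction. Of 12 genes of these families, 2 were called with a smaller rise in KO, Gadd45b and Ier2 (0.184% of all genes tested were). The median difference of the 12 was -0.46 log2. For Gadd45b, the WT cultures went from 2.28, 2.07, 2.66 and 2.55 CPM to 18.5, 20.8, 10.9 and 20.4 CPM, and the KO cultures went from 4.52, 3.57, 3.76 and 3.65 CPM to 6.96, 7.09, 2.52 and 5.13 CPM. Gadd45b was higher in every KO control culture and lower in every KO culture at 30 min, and in KO2C it was lower after BDNF than before. Its difference was -2.41 ± 0.34 (SE, adjusted p = 0.00910), called in 5 of the 8 fits without 1 culture. For Ier2, the WT cultures went from 6.40, 8.08, 14.7 and 8.44 CPM to 103, 154, 174 and 181 CPM, and the KO cultures went from 10.3, 10.3, 10.54 and 10.7 CPM to 68.2, 83.5, 63.7 and 35.9 CPM. KO2D had the smallest rise of Ier2, and the difference was -1.49 ± 0.24 (SE, adjusted p = 0.0204), called in 4 of those 8 fits.

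Ccn1, which encodes a secreted matricellular protein, was the gene called among 16 tested genes of rapid secreted proteins. In WT, Ccn1 (chr3:145646976-145649981) went from 7.81, 10.2, 13 and 3.63 CPM in control to 317, 377, 423 and 201 CPM with BDNF. The KO cultures had 16.9, 12.9, 17.9 and 14.5 CPM of Ccn1 in control and 152, 155, 148 and 136 CPM with BDNF. The 4 KO cultures lay close together after BDNF, below all WT cultures. Ccn1 rose 39.8-fold in WT and 9.62-fold in KO, a difference of -2.05 ± 0.15 (SE, adjusted p = 6.16e-05). The median difference of these 16 genes was -0.06 log2. Bdnf itself was not called: the WT cultures went from 52.7, 63.2, 95.4 and 28.2 CPM to 49.0, 94.4, 147 and 55.6 CPM, and the KO cultures went from 266, 204, 254 and 230.3 CPM to 245, 205, 242 and 311 CPM. Bdnf was higher in KO in every library, and its difference in response was -0.46 (95% interval -0.86 to -0.05, adjusted p = 1.0, edgeR's quasi-likelihood test).

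Dusp1 encodes a nuclear phosphatase that inactivates MAP kinases and was called among 23 MAP kinase phosphatase and feedback genes, whose median difference was -0.19 log2. The control levels of Dusp1 (chr17:26505590-26562128) were 26.3, 36.5, 38.3 and 22.3 CPM in WT and 56.5, 49.2, 57.8 and 42.1 CPM in KO. At 30 min Dusp1 reached 174, 253, 287 and 177 CPM in WT and 170.4, 173, 132 and 114 CPM in KO. In control Dusp1 was higher in every KO culture, and at 30 min the highest KO culture lay just under the lowest WT culture. It rose 7.22-fold in WT and 2.85-fold in KO, a difference of -1.34 ± 0.12 (SE, adjusted p = 0.000173). Dusp1 overlaps Ergic1 on the opposite strand, a gene with no called difference. In the same list 5 genes rose in WT and 2 in KO. Dusp5 and Dusp6, both ERK phosphatases, differed by -1.40 (adjusted p = 0.206) and -0.82 (adjusted p = 0.288), and Errfi1, an inhibitor of EGF receptors, by -0.54 (adjusted p = 0.248). Without KO2C and KO2D, Dusp5 passed the threshold (-1.22, adjusted p = 0.0113).

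Inducible kinases gave 1 called gene of 11 tested, Sik1, a salt-inducible kinase that restrains CREB coactivators. For Sik1, the WT cultures went from 39.9, 43.2, 51.4 and 36.5 CPM to 74.0, 104, 98.3 and 98.0 CPM, and the KO cultures went from 42.9, 42.0, 45.0 and 28.5 CPM to 56.7, 58.0, 54.6 and 40.3 CPM, a difference of -0.72 ± 0.12 (SE, adjusted p = 0.0381) that was called in 2 of the 8 fits without 1 culture. Plk2, a kinase that acts on synapses, rose in both genotypes (0.74 in WT, 0.52 in KO). Its difference was -0.22 with a 95% interval of -0.39 to -0.05 (adjusted p = 1.0), so a value as low as the estimate for Sik1 lay outside the interval for Plk2. Pim3 differed by -0.86 (adjusted p = 0.0968) and was not called.

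Of 18 small GTPase genes and their regulators, 2 were called (0.184% of all genes tested were), with a median difference of -0.20 log2. In WT 5 of the 18 rose (0.522% of all genes did) and in KO 0 rose (0.147% of all genes did). Arl4d encodes an ARF-like GTPase. For Arl4d, the WT cultures went from 12.4, 11, 9.71 and 11.8 CPM to 44.2, 29.4, 25.8 and 46.2 CPM, and the KO cultures went from 14.8, 16.9, 16.8 and 13.7 CPM to 18.1, 21.2, 19 and 14.8 CPM. The KO cultures started above and ended below all WT cultures, with a KO response of 0.23 that did not pass the test and a difference of -1.43 ± 0.15 (SE, adjusted p = 0.000670). Rhob, which encodes a small GTPase of endosomes, ranged from 119 to 166 CPM in WT control and from 219.7 to 314 CPM in WT at 30 min. In KO Rhob ranged from 84.3 to 112 CPM in control and from 93.0 to 134 CPM at 30 min, and it differed by -0.63 ± 0.09 (SE, adjusted p = 0.00866), the smallest difference called and one that was called in 4 of the 8 fits without 1 culture.

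Dnajb1, an HSP40 cochaperone of HSP70 and a target of heat shock factor, was the gene called among 24 heat shock chaperone genes, whose median difference was 0.05 log2. Dnajb1 (chr8:83608193-83612653) stood at 49.5, 49.7, 55.8 and 44.6 CPM in the WT control cultures and at 160.2, 149, 153 and 165 CPM after BDNF. In KO it stood at 67.7, 64.0, 62.9 and 62.8 CPM in control and at 95.3, 101, 84.1 and 69.98 CPM after BDNF. The genotypes did not overlap in control, with KO higher, or at 30 min, with KO lower. Dnajb1 rose 3.15-fold in WT and 1.35-fold in KO, a difference of -1.22 ± 0.12 (SE, adjusted p = 0.000300). In the list 1 gene rose in WT and 0 in KO. Cbx8, a chromodomain subunit of Polycomb complex PRC1, was the gene called among 21 Polycomb genes, whose median difference was -0.08 log2. For Cbx8, the WT cultures went from 12.1, 12.2, 16 and 13.7 CPM to 28.9, 29.7, 27.7 and 42.7 CPM, and the KO cultures went from 16.1, 14.8, 14.5 and 14.1 CPM to 15.9, 17.7, 14.1 and 11.6 CPM. Cbx8 rose by 1.24 log2 in WT and had a KO response of -0.01, the 1 KO estimate below 0 among the called genes, and its difference was -1.25 ± 0.18 (SE, adjusted p = 0.00982), called in 4 of the 8 fits without 1 culture.

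Tiparp, a mono-ADP-ribosyltransferase gene, was called among 21 other rapid transcription regulators (median difference -0.36 log2), of which 7 rose in WT and 1 in KO. For Tiparp, the WT cultures went from 19.6, 19.7, 22.8 and 16.9 CPM to 49.8, 55.7, 63.8 and 68.9 CPM, and the KO cultures went from 29.0, 28.8, 33.5 and 33.0 CPM to 43.7, 43.5, 27.7 and 51.5 CPM. Tiparp was higher in KO in control, and KO2C was again the culture in which it was lower after BDNF. Its difference was -1.19 ± 0.20 (SE, adjusted p = 0.0346), called in 2 of the 8 fits without 1 culture. The other 4 called genes belonged to none of the lists and are named because they were called: Ppp1r10, a regulatory subunit of protein phosphatase 1 in the nucleus, Irf2bp2, a transcriptional corepressor, Erf, an ETS repressor that ERK controls, and Gm13889, a predicted gene. Their differences were -0.75 (adjusted p = 0.0107), -0.85 (adjusted p = 0.0155), -0.86 (adjusted p = 0.0455) and -1.24 (adjusted p = 0.0108). Of the 8 fits without 1 culture, Erf was called in 2 and the others in 4 each. For Irf2bp2, the WT cultures went from 20.5, 21.8, 26.8 and 28.1 CPM to 40.7, 37.4, 42.8 and 55.7 CPM, and the KO cultures went from 20.1, 19.1, 23.1 and 20.1 CPM to 21.7, 22.4, 19.7 and 18.9 CPM, so that KO libraries overlapped between control and BDNF.

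Several related groups held no called gene, and with 0.184% of all genes called a count of 0 in groups of this size does not set them apart. Among 8 Krüppel-like factors 4 rose in WT and 0 in KO, with a median difference of -0.40 log2. Klf6 differed by -0.52 (adjusted p = 0.542) and Klf4 by -1.75 (adjusted p = 0.674). The genes of the TrkB receptor and its transducers showed 0 calls of 37, and 0 rose in either genotype, with a median of -0.02. Ntrk2, which encodes TrkB, stood at 683, 776, 736 and 615 CPM in WT control and at 569, 693, 637 and 408 CPM in KO control. Its levels overlapped, with the lowest in KO2D, and its difference in response was 0.09 (95% interval -0.07 to 0.24). The kinases and factors that act on rapid gene promoters had 0 calls of 23 (median 0.03), with Srf at -0.50 (adjusted p = 0.390). The late activity-regulated genes had 0 calls of 28 (median 0.01), and 1 of them rose in WT at this time. None of the 7 lists of cell type markers held a called gene. The median of the 12 astrocyte markers tested was -0.59 log2, against -0.02 over all genes.

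Starting levels differed between genotypes for some called genes and not for others. In control cultures 9 of the 30 called genes were higher in KO (8.66% of all genes were) and 2 were lower (9.43% of all genes were), and the median of the 30 was 0.34 log2. The 9 were Fosb (2.28), Npas4 (1.51), Atf3 (1.29), Fos (1.22), Ccn1 (0.85), Dusp1 (0.74), Tiparp (0.66), Fbxo33 (0.57) and Dnajb1 (0.37), all as KO minus WT in log2. Rhob (-0.46) and Tob1 (-0.50) were lower in KO in control. At 30 min 27 of the 30 were lower in KO (13.3% of all genes were) and 0 higher (11.9% of all genes were), with a median of -1.09. The remaining 3 did not pass the test at 30 min: Fos (-0.86, adjusted p = 0.0527), Npas4 (-0.51, adjusted p = 0.471) and Atf3. These comparisons use the libraries of the difference itself and describe its parts, and they carry no term per culture because a culture has 1 genotype. Arc, Btg2, Egr2, Jun and Cbx8 did not pass the test in control and were lower in KO at 30 min.

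How much of the WT rise KO cultures kept was described over the 82 genes that rose on the average of both genotypes. A gene could pass this choice through its WT rise alone, as Cbx8 did (1.24 log2 in WT, -0.01 in KO). All 30 called genes were among the 82, so the counts and shares below are a description and no separate evidence. KO cultures had a smaller log2 rise in 81 of the 82, and 30 of these differences were called. Over all 16275 genes tested, the estimate was lower in KO for 8868. The KO rise was a median of 39.5% of the WT rise on the log2 scale (quartiles 26.3 and 59.4%), and 39.3% without KO2C and KO2D. The median rise of these genes was 1.07 log2 in WT and 0.38 log2 in KO. Over the 82 genes, which share all libraries, the share kept had a Spearman correlation of 0.06 with the WT rise. The WT rise is also the divisor of that share. The correlation therefore cannot tell whether the share depended on the size of the rise. On the log2 scale, genes that kept most were Slc16a6 (127%), Sox9 (94.2%), Ifrd1 (88.8%), Egr1 (81.2%) and Rgs4 (78.3%), and those were the 5 genes above 75%. In CPM the gain of Egr1 was 208 to 597 in the KO cultures and 1096 to 1169 in the WT cultures. Slc16a6, a monocarboxylate transporter gene, was the exception with a larger rise in KO, and its difference was not called. Under 25% lay 17 genes, with the lowest shares in Cbx8 (-0.77%), Irf2bp2 (1.41%), Coq10b (8.37%), H3f3b (10.48%) and Nr4a2 (13.98%). The 9 genes with the highest shares were not called, and the highest share of a called gene was that of Arc, 68.6%.

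**Figure D4:**
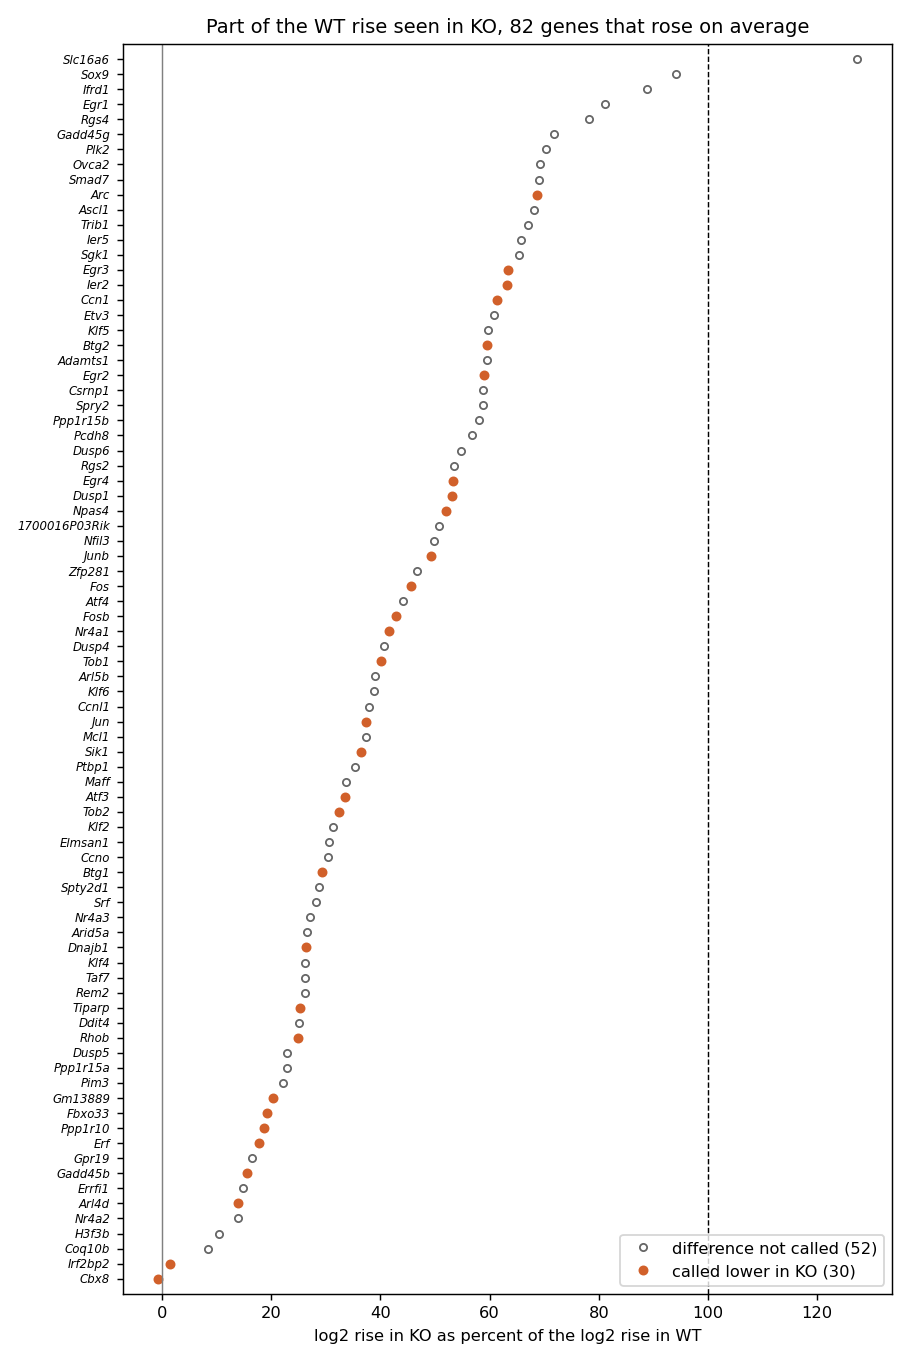
Log2 rise in KO as a percent of the log2 rise in WT for the 82 genes that rose on the average of both genotypes, ordered by that share, with called genes filled and other genes open. A dashed line marks 100%, and 81 of the 82 points lie to its left.

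Without KO2C and KO2D, 48 genes had a smaller rise in KO (0.285% of 16865 tested) and 0 a larger one (0%), and all 30 called genes were among the 48. Fosb then differed by -3.07, Egr2 by -2.28, Arc by -1.72, Npas4 by -1.99 and Btg2 by -1.64. The 18 further genes all had negative estimates in the 16 libraries. Those include every library in which the 18 were chosen, so the shared sign is no separate evidence. Of the 18 genes, 7 belonged to the response lists, among them Maff (-1.44), Dusp5 (-1.22), Csrnp1 (-0.95), Nr4a2 (-0.63) and Jund (-0.61). The 18 also included Tril (-3.15), Olig2 (-2.33), Acsbg1 (-1.18) and Aldh1l1 (-1.04), genes known from glia. Of the 12 astrocyte and 8 oligodendrocyte lineage markers tested, 1 of each list was called in this fit. Olig2 was low, at 0.0909 to 3.25 CPM. Idi1 (-0.56) and Insig1 (-0.52), sterol-regulated genes, were among the 18 as well. In the 16 libraries the values of Tril and Olig2 were -1.37 and -1.12 (adjusted p = 1.0 for both, edgeR's quasi-likelihood test). In KO2D the BDNF library held 7.57 CPM of Serpinb2 and 8.65 CPM of Tm4sf1, against at most 0.784 and 1.06 CPM in the other 15 libraries.

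The number of called genes moved with the cultures used. The 30 genes kept a negative sign. They were chosen for it in these libraries, with all KO rises below all WT rises. Their sign in fits of fewer of the same cultures is therefore a description and no separate evidence. Leaving out WT replicate 1, 2 or 4 left 18, 15 and 15 genes with a smaller rise in KO, and leaving out KO replicate 1 left 16. The other 4 single cultures left 24 to 31, and 14 genes kept their call in all 8 such fits: Fosb, Ccn1, Npas4, Egr4, Dusp1, Arc, Btg2, Dnajb1, Arl4d, Nr4a1, Egr2, Fos, Junb and Jun. The descriptions of the control libraries carry a number, 1 or 2, that splits the cultures into sets and whose meaning the labels do not give. Set 1 holds WT2C, WT2D and KO2A, and set 2 holds WT2E, WT2F, KO2B, KO2C and KO2D. Within set 1 the differences of the 30 genes ran from -3.06 to -0.68 (median -1.28), and within set 2 from -3.69 to -0.53 (median -1.43). Set 1 has 1 KO culture, so its values stand without a p. Set 2 alone called 1 gene, Fosb (adjusted p = 0.0104, edgeR's quasi-likelihood test).

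**Figure D5:**
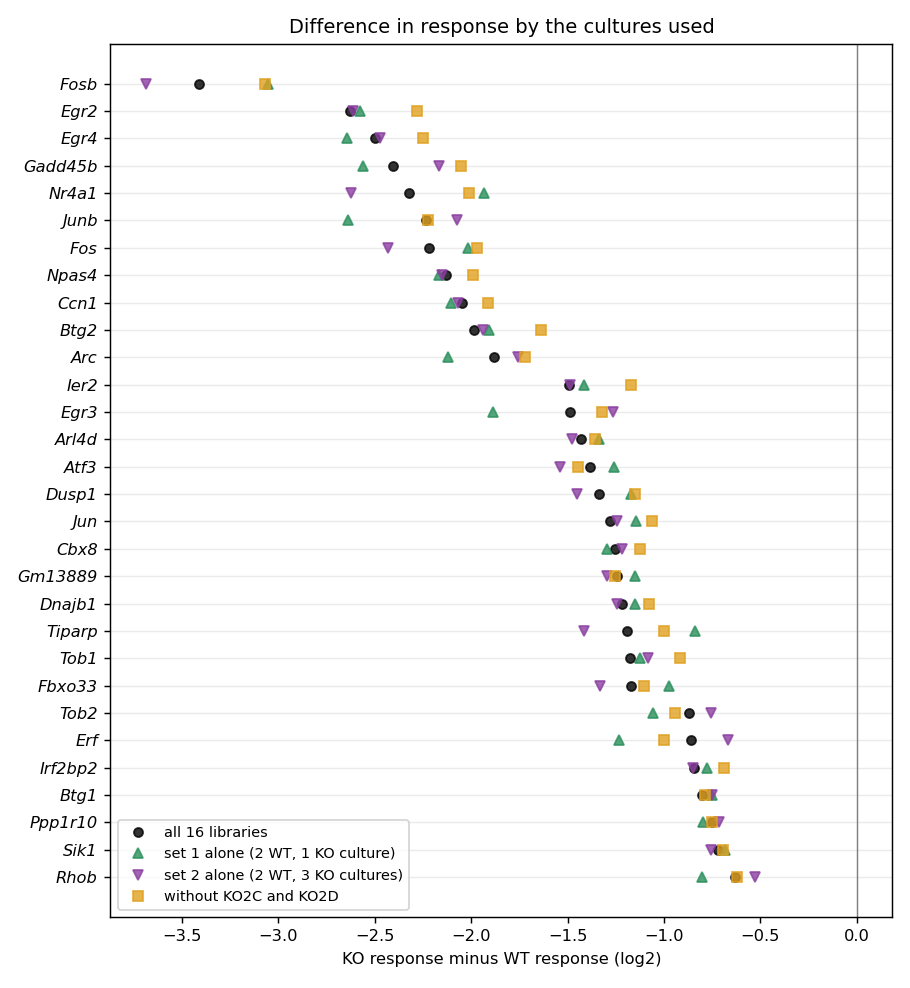
Difference in response (KO minus WT, log2) of the 30 called genes in all 16 libraries (black), within set 1 (green), within set 2 (purple) and without KO2C and KO2D (yellow). All points lie below 0, with Fosb lowest in each. The genes were chosen for a negative difference in these same libraries.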

How the data were processed

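Polyadenylated RNA of primary cortical neurons was sequenced with a stranded mRNA kit, per the labels' protocols. The authors deposited raw counts of reads per gene for 45792 genes, with no normalisation, and 1 column per library. All columns were matched to samples. STAR 2.7.9a, DESeq2 1.38.3, limma 3.54.2, edgeR 3.40.2 and mm10 are named in the submitters' processing notes. The sources used here give neither the counting program nor its strand setting. Gene symbols and positions came from GENCODE M21 for 45229 identifiers (98.8%), and the other 563 held 0.0662% of counts.

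Counts were fitted with edgeR 4.0.16 in R 4.3.3: filterByExpr (count 10, total 15), TMM factors (0.826 to 1.05), and a quasi-likelihood model with 1 term per culture and the 30 min response of each genotype, with 6 residual degrees of freedom. The biological coefficient of variation was 13.0% (24.6% without culture terms). Benjamini-Hochberg adjustment ran over all 16275 genes, and SE is the log2 value divided by the square root of F. KO was set against WT at each condition in a fit with 1 mean per group. Levels are given as CPM scaled by the TMM factors, and a prior count of 2 was added before log2. The model was tested on simulated data.

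The culture code pairs control and BDNF libraries: their deviations from group means correlated at 0.23 to 0.49 in 7 cultures and at 0.05 in KO2C. Named genes were the 20 most negative and 10 most positive called differences of at least 1 CPM, every called list member and up to 4 leading members of each of 17 response lists, and Egr1, Egr2, Fos, Fosb, Arc, Npas4, Bdnf, Ntrk2 and Hist2h2be. The genes, lists and tests were chosen with earlier results of these data known. Genes named from the 82 average responders, and the 18 further genes without KO2C and KO2D, were chosen after their values were seen. Promoter windows came from RefSeq, and 5 called genes had none. Alternatives were DESeq2 1.42.0, limma-voom 3.58.1, other filters, other scaling, other design terms and left-out cultures.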

Additional observations from a re-analysis of the deposited data

Results flagged for a closer look

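In groups of 4 libraries or cultures, a value was singled out where its gap to the nearest other value was past Dixon's 95% critical value, as a share of the group's range. Chance marks about 1 in 20 such groups, and 5 of 72 were marked. The mitochondrial share of counts was 21.7% in KO at 30 min, replicate 4, against 4.60 to 7.52% in the other 3 libraries of that group. Arc rose by 4.61 log2 in KO2B and by 3.88 to 3.94 log2 in the other KO cultures. Nr4a1 rose by 4.83 log2 in WT2F and by 3.63 to 3.79 log2 in the other WT cultures. Rhob rose by 0.65 log2 in WT2E and by 0.89 to 0.92 log2 in the other WT cultures. Tiparp had a log2 change of -0.27 in KO2C and of 0.59 to 0.64 in the other KO cultures. The genotypes differed in their 30 min response at 30 genes by the test of the difference itself, edgeR's quasi-likelihood test, Benjamini-Hochberg adjusted.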

How the results depend on the processing

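The estimates of all 30 called genes stayed below 0 in all 20 alternatives. Those fits reuse libraries in which the genes were chosen for a negative difference, so the sign is no separate evidence. In set 1 alone, with 1 KO culture, estimates were taken as values and no calls were counted. Fosb was called in each of the other 19. The count of genes with a smaller rise in KO was 30. It was 4 with no replicate block, which ignores the pairing of libraries by culture, 50 by DESeq2, 87 with no filter on low counts, 48 without KO2C and KO2D, 1 in set 2 alone and 15 to 31 with 1 culture left out. The fit of all 24 libraries also called 30 genes but lost 6 of the first 30 (Arc, Btg1, Egr3, Ier2, Jun and Rhob), and a set term lost 7 (Btg1, Egr3, Erf, Ier2, Irf2bp2, Sik1 and Tiparp). No filter gave 2 genes with a larger rise in KO, where the main count was 0, as it was with each culture left out. Genes that rose in WT numbered 85, and 56 with no replicate block, 136 by DESeq2, 157 with no filter, 226 without KO2C and KO2D, 44 in set 2 and 66 to 126 with a culture left out. Genes that fell in WT numbered 0, and 1 by DESeq2, 4 with no filter and 21 without KO2C and KO2D. Genes that rose in KO numbered 24, and 15 with no replicate block, 37 by DESeq2, 69 with no filter and 18 to 26 with a culture left out. Genes that fell in KO numbered 0, and 2 by DESeq2, 65 with no filter, 6 without KO2C and KO2D, 1 in set 2 and 0 to 2 with a culture left out. KO was lower in control at 1534 genes, at 256 in set 2 and at 1002 to 2012 with a culture left out. It was higher in control at 1410 genes, at 2128 without KO2C and KO2D, at 152 in set 2 and at 891 to 2026 with a culture left out. At 30 min KO was lower at 2162 genes, at 368 in set 2 and at 1404 to 2613 with a culture left out. It was higher at 1935, at 210 in set 2 and at 1147 to 2475 with a culture left out. The lowest of these counts came without WT replicate 1 or, in control, without WT replicate 1 or 2. The sets and left-out fits hold fewer libraries, and the cause of the changed counts was not tested. The counts under the other settings (limma-voom, DESeq2's size factors, all 24 libraries, mitochondrial genes removed, a minimum of 1 CPM, a set term) stayed within 1.5 times. Genes with few counts, such as Klf2, Klf4 and Serpinb2, had wide errors at this depth.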

Other observations

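At 24 h of BDNF, in a fit of all 24 libraries with 1 term per culture, 2 of the 30 genes had a smaller response in KO than in WT and 0 a larger one. Over all genes tested there, 0.989% had a smaller and 0.793% a larger response. The 24 h and 30 min responses share their control libraries. The 2 genes were Atf3, at -1.84 ± 0.21 log2 (SE, adjusted p = 0.000193), and Tiparp, at -1.08 ± 0.19 log2 (SE, adjusted p = 0.00781), by edgeR's quasi-likelihood test, Benjamini-Hochberg adjusted. Fosb stood at -0.29 log2 (adjusted p = 0.782), Arc at -1.26 (adjusted p = 0.283) and Egr2 at -1.31 (adjusted p = 0.210). Both called genes started higher in KO control cultures.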
